A study of Mus musculus with 6 samples.

Results

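The mitochondrial respiratory chain was examined in the mouse embryonic stem cell line RW4 on 6 Affymetrix arrays. The genes were those whose platform symbol starts with Nduf, Sdha, Sdhb, Sdhc, Sdhd, Uqcr, Cox4 to Cox8 or Atp5 on a probe set that carries 1 symbol, with the brightest probe set kept for each gene. This gave 93 genes of 19938 measured: 41 of complex I, 8 of complex II, 8 of complex III, 19 of complex IV and 17 of complex V. Of the 93, 74 encode subunits found in most tissues, 11 encode assembly factors of complexes I and II, and 8 encode tissue isoforms of complex IV subunits or of Ndufa4. Ndufa4 and Ndufa4l2 are counted with complex IV, where the Ndufa4 protein is now placed. Cox7c had no probe set of its own under this rule and is not analysed here.

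Each of 3 conditions had 2 arrays: no treatment, 4-hydroxytamoxifen (4OHT) at 1 µM, and Shld1 at 1 µM. 4OHT is the active metabolite of tamoxifen and switches on proteins fused to ERT2, a modified estrogen receptor domain. Shld1 is a small synthetic molecule that protects fusions with an unstable FKBP domain from breakdown. The labels give the induction system as WT for the untreated arrays, ERT2 for the 4OHT arrays and FKBP for the Shld1 arrays. The series title names only the drugs and RW4 cells, and whether the treated cells carried a fusion construct was not stated. All cells were kept undifferentiated on gelatin with serum and leukemia inhibitory factor. How long the cells were treated was not stated, nor whether duplicate arrays came from separate cultures. The p-values thus rest on the spread between these duplicates alone, and that spread may be technical.

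The respiratory chain passes electrons from NADH (complex I) and succinate (complex II) through ubiquinone to cytochrome bc1 (complex III), and from there through cytochrome c to oxygen (complex IV). The proton gradient built by complexes I, III and IV drives ATP synthase (complex V). Most subunits are encoded in the nucleus and their promoters often carry sites for NRF1, for GABP of the ETS family and for YY1, while a few core subunits are encoded by mitochondrial DNA. Pluripotent cells express the chain and also draw heavily on glycolysis.

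RefSeq promoter windows, which run from 250 bases before to 50 bases after a gene's start on GRCm38.p6, were found for 77 of the 93 genes. The stretches that follow all lie upstream of the start and are written 5′ to 3′ on the gene's strand, with motif matches in capitals. For each complex the gene with the most kinds of motif wholly upstream is shown, GC boxes not counted and ties taken by the order of the symbols, since these are the kinds of site that the nuclear genes of the chain share.
Ndufa11, an accessory subunit of complex I (chr17:56717662-56717721, plus strand): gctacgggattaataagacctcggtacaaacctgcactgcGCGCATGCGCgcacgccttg
Sdhd, a membrane anchor of complex II (chr9:50603879-50603938, minus strand): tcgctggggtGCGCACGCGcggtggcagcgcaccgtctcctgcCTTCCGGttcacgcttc
Uqcr11, a small subunit of complex III (chr10:80406871-80406930, minus strand): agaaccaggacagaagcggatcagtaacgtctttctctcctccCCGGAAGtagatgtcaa
Cox6a1, the widespread VIa subunit of complex IV (chr5:115348959-115349130, minus strand): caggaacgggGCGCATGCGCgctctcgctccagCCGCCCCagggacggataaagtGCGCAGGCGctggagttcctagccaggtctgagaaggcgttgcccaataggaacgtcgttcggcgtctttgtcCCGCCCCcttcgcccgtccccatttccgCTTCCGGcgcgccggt
Atp5h, a stalk subunit of complex V (chr11:115419941-115420070, minus strand): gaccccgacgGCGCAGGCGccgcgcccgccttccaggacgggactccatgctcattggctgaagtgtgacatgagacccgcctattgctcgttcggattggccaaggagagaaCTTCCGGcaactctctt

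The capitals mark the NRF1 core (GCGCANGCG), the ETS motif (CCGGAAG) and the GC box (GGGGCGG), each searched on both strands. In Ndufa11 and Cox6a1 the NRF1 core reads on both strands over the same bases, so that its matches overlap there. Matches of different motifs overlapped in 0 of the 104 matches found in the genes' windows. The NRF1 core was present in 29.9% of the 77 genes (23), against 9.63% of 17491 protein-coding genes with a window. The ETS motif was present in 27.3% (21 genes) against 12.9%. The YY1 motif (AAGATGGCG) was present in 9.09% (7 genes) against 2.14%, and the ERR motif (TCAAGGTCA), a site for estrogen-related receptors, in 2.6% (2 genes, Sdhd and Atp5g3) against 0.377%. The GC box was present in 31.2% against 33.8%, close to its share of all genes. At least 1 of the NRF1, ETS and YY1 motifs was found in 54.5% of the genes and in 21.8% of all. The windows of these genes were also somewhat richer in CpG, with a median of 20 CpG dinucleotides a window against 13 over all windows and a median GC content of 58.5% against 56.3%; the part of base composition in the motif shares was not tested.

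**Figure D1:**
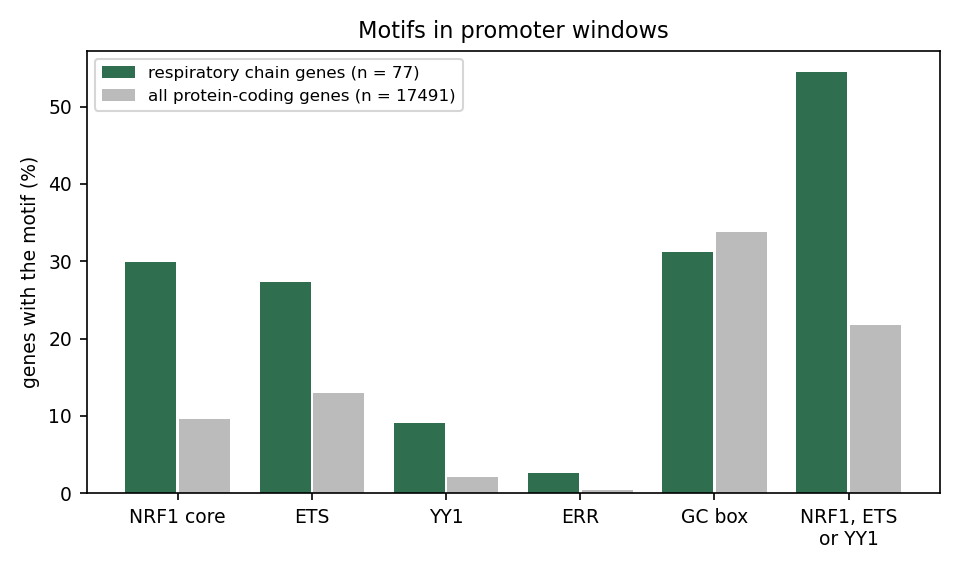
The share of genes (%, vertical axis) whose RefSeq promoter window holds each motif on either strand, for the 77 respiratory chain genes with a window (green) and for 17491 protein-coding genes (grey). The green bars stand above the grey ones for NRF1 (29.9% against 9.63%), ETS (27.3% against 12.9%) and YY1 (9.09% against 2.14%), and not for the GC box (31.2% against 33.8%).

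The motif counts of the complexes rest on few genes, and differences between complexes were not tested. NRF1 cores were found in 9 of 37 complex I genes, 4 of 7 complex II genes, 2 of 5 complex III genes and 7 of 15 complex V genes. They were found in 1 of 13 complex IV genes, Cox6a1, and those 13 include 4 tissue isoforms. Of all protein-coding genes with a window, 9.63% held an NRF1 core. Of the 7 YY1 matches, 6 lay just downstream of the start, in Ndufa9, Ndufc1, Ndufs4, Ndufs6, Ndufs7 and Atp5j2. The 4 tissue isoforms with a window held 0 NRF1, ETS and YY1 motifs, where 21.8% of all protein-coding genes held at least 1, so that 4 genes say little. The 100 bases upstream of paired isoforms are given next, because the muscle forms Cox7a1 and Cox8b are among the genes described further on.
Cox7a1, the heart and muscle isoform (chr7:30184071-30184170, plus strand): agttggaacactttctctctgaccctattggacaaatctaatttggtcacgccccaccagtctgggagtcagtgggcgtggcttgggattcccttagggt
Cox7a2, the widespread isoform (chr9:79759854-79759953, minus strand): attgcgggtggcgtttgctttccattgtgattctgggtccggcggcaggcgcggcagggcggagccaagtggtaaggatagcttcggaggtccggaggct
Cox8a, the widespread isoform (chr19:7217617-7217716, minus strand): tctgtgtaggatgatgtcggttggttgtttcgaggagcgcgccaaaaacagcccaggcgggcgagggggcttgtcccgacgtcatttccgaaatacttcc
Cox8b, the heart and muscle isoform (chr7:140900447-140900546, minus strand): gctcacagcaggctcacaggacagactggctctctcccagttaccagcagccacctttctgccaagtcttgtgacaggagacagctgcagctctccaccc
None of these stretches holds a whole match to the motifs searched, so no letters are in capitals. The Cox8a window has 2 ETS matches, 1 that begins in the last bases shown and runs across the start and 1 downstream of the start. The lack of capitals says only that these letters are not in these stretches.

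The deposited values are log2 signals of 35556 probe sets, of which 21789 carry 1 gene symbol, 1621 several and 12146 none. The values were spread over a similar range on every array, with an SD over probe sets of 2.24 to 2.35. The range was narrowest on the Shld1 replicate 2 array (SD 2.24) and the 4OHT replicate 1 array (SD 2.29). The cells matched their label: all 12 embryonic stem cell markers listed, among them Pou5f1, Sox2, Nanog and Zfp42, were above background. Background was set at a log2 signal of 3.71, the 95th percentile of 1027 olfactory receptor genes, which these cells are not thought to use; 12841 of 19938 genes (64.4%) were above it. Marker lists of other cell types were detected in part, with 4 of 8 fibroblast, 6 of 7 primitive endoderm, 4 of 7 trophoblast, 6 of 8 heart and skeletal muscle and 4 of 7 testis germ cell markers above background. The mean log2 signal of the muscle list ran from 4.37 to 4.48 on the untreated arrays, from 4.39 to 4.58 on the 4OHT arrays and from 4.41 to 4.53 on the Shld1 arrays.

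Of the 93 genes, 91 were above background in the mean over the 6 arrays, and the other two, Cox7b2 and Cox8b, are tissue isoforms. Levels of different probe sets are not compared as amounts of RNA, because each probe set has its own affinity. As a description of the arrays, the mean log2 signal of the 34 complex I subunits ran from 5.61 to 10.3 with a median of 8.59. The 4 complex II subunits ran from 7.55 to 9.51, and the 8 complex III subunits from 8.15 to 10.74. The 11 widespread complex IV subunits ran from 9.14 to 11.89 with a median of 10.78, and the 17 complex V subunits from 9.67 to 11.17 with a median of 10.36. All of these subunits lay above the median over all genes, 4.60. The 11 assembly factors lay lower, from 4.88 to 7.65 with a median of 6.46. The 8 tissue isoforms covered the whole range, from 2.74 to 9.40.

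**Figure D2:**
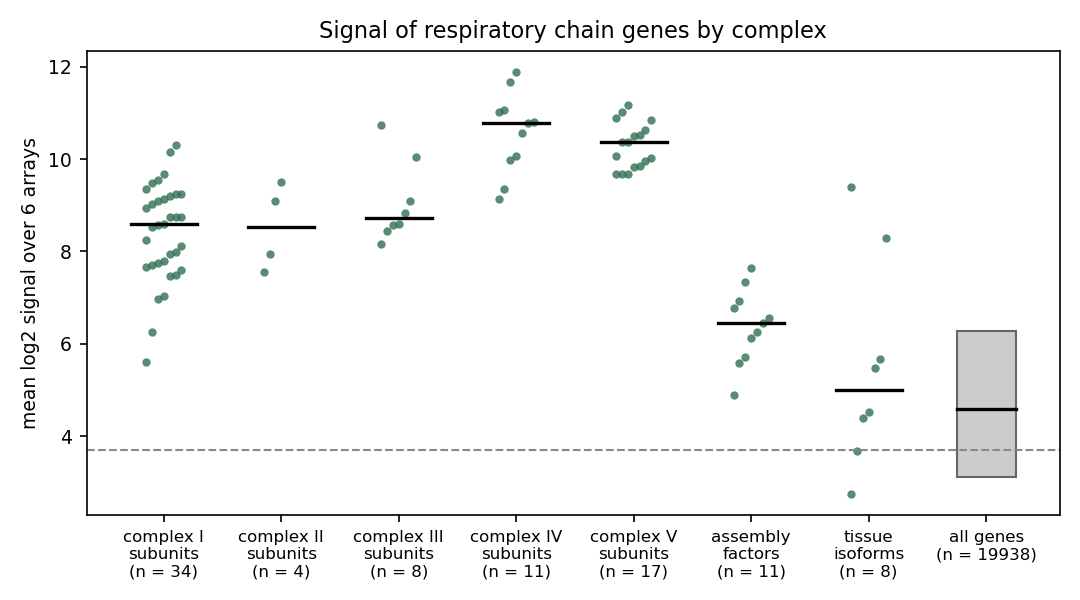
Mean log2 signal over 6 arrays (vertical axis) for each respiratory chain gene (points) by complex and class, with the median of each class (black line), the quartiles of all 19938 genes (grey box) and the background level of 3.71 (dashed line). Subunits of complexes IV and V have medians of 10.78 and 10.36, assembly factors 6.46, and only 2 tissue isoforms lie under the dashed line.

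The isoforms of complex IV that are known from particular tissues fell into 3 kinds. Cox7b2, an isoform best known from testis, read 2.70 and 2.77 on the untreated arrays, 2.52 and 2.57 with 4OHT, and 2.74 and 3.16 with Shld1, all under the background level. Cox8b, the heart and muscle form of subunit VIII, read 3.64 and 3.54 untreated, 3.55 and 3.55 with 4OHT, and 3.96 and 3.88 with Shld1. Its 2 Shld1 values are the only ones above the background level. Cox8c, Cox4i2 and Cox6a2, forms known from testis, from lung and low oxygen, and from heart and muscle, had means of 4.40, 4.53 and 5.48. They were 0.681, 0.814 and 1.77 log2 units above background, within the lower part of the detected genes.

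The third kind was plainly detected. Cox6b2, a subunit VIb isoform known from testis, read 9.40 and 9.46 untreated, 9.34 and 9.42 with 4OHT, and 9.56 and 9.25 with Shld1. Cox7a1, the heart and muscle form of subunit VIIa, read 8.52 and 8.24 untreated, 8.08 and 8.01 with 4OHT, and 8.51 and 8.35 with Shld1. Each stood over 4 log2 units above the background level on every array. Their widespread partners read 11.92 and 11.91 (Cox6b1) and 9.19 and 9.15 (Cox7a2) on the untreated arrays. Since the partners are different probe sets, these values do not give the share of each isoform. Of the testis germ cell markers, Ddx4, Dazl, Sycp3 and Prm1 were above background, with untreated values of 4.01 and 4.22, 5.59 and 5.96, 7.77 and 7.84, and 4.36 and 4.32, while Tnp1, Acrv1 and Ldhc were not. Of the muscle markers, Myh7, Tnnt2, Tnnt1, Actc1, Nkx2-5 and Ckm were above background and Myh6 and Myl2 were not.

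The comparison of 4OHT with untreated cells asks whether expression differs in cells given the drug used to switch on ERT2 fusions. No respiratory chain gene passed the threshold: with limma and Benjamini-Hochberg adjustment over 19938 genes, 0 of 93 had an adjusted p under 0.05 (smallest 0.96), as did 0.0% of all genes. At an unadjusted p under 0.05, 4 genes were lower (4.30%, against 2.42% of all genes) and 0 higher (against 2.57%). The direction was nevertheless uneven. Of the 93 genes, 76 had a lower mean with 4OHT and 17 a higher mean, with a median log2 difference of -0.093, where the median over all genes was -0.009. Of all genes, 52.2% had a lower mean. Both 4OHT values lay under both untreated values in 42 genes (45.2%, against 20.4% of all genes), and over both in 6 (6.45%, against 17.3%).

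A downward tilt was also seen in bright genes as a class, a set that includes those of the 93 genes bright enough to enter it. Among the 1384 genes with a mean log2 signal of 8 or more, a cut chosen after seeing the data, the median difference was -0.056 and 35.5% had 4OHT values under both untreated ones. Among the 12841 genes above background the median difference was -0.035. The 2 4OHT arrays did not contribute equally: relative to the untreated mean, the median shift of the 93 genes was -0.136 on replicate 1, with 75 genes below, and -0.036 on replicate 2, with 68 below. Replicate 1 is the narrower array of the group, and on it the median shift of the bright genes was -0.104, against -0.010 on replicate 2. Without that array the median difference of the 93 genes was -0.036, and 68 were lower. The part of signal range in the tilt was not tested. Rescaling of the arrays left the median below 0, at -0.065 with quantile normalization, -0.047 with centring on the 75th percentile and -0.043 with cyclic loess. With these scalings 68, 61 and 66 of the 93 genes were lower, and the medians over all genes were -0.012, 0.036 and -0.008.

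**Figure D3:**
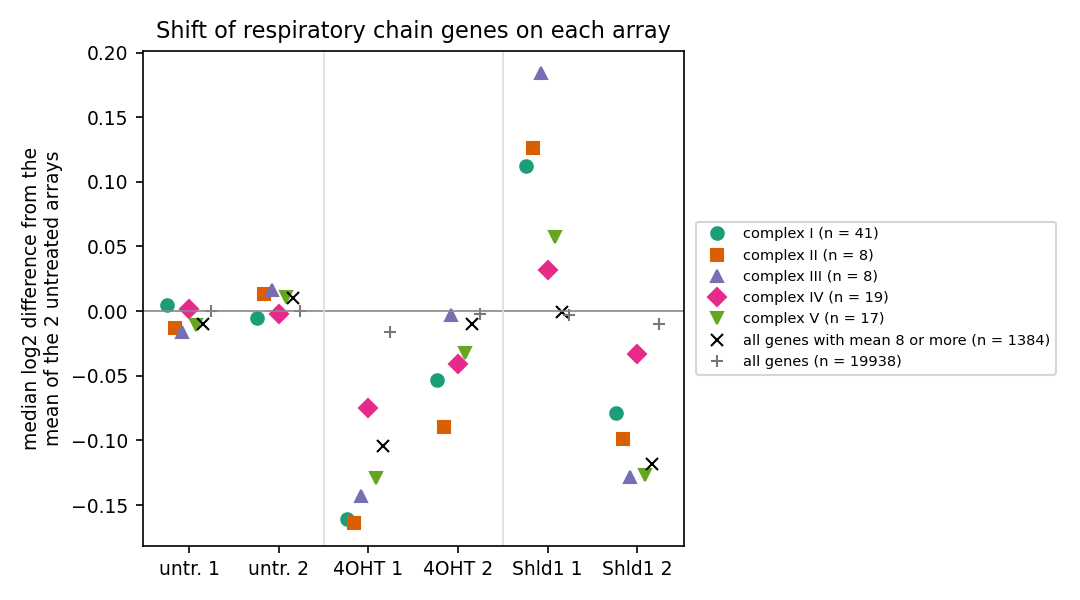
Median log2 difference from the mean of the 2 untreated arrays (vertical axis) on each of the 6 arrays, for the genes of complexes I to V (coloured symbols), for 1384 genes with a mean log2 signal of 8 or more (black crosses) and for all 19938 genes (grey plus signs). All 5 complexes lie below 0 on both 4OHT arrays and on Shld1 replicate 2, and above 0 on Shld1 replicate 1; the bright genes are at -0.104, -0.010, -0.118 and -0.001 on those arrays.

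By complex, the median differences with 4OHT were -0.119 for the 41 complex I genes (34 lower), -0.120 for the 8 of complex II (7 lower), -0.060 for the 8 of complex III (6 lower), -0.039 for the 19 of complex IV (14 lower) and -0.061 for the 17 of complex V (15 lower). All 11 assembly factors had lower means, with a median of -0.129. These medians differ by less than the gap between the 2 4OHT arrays, where complex I stood at -0.161 and -0.053. The median standard error of a single gene was 0.148 and the median 95% interval reached 0.331 to either side, so that differences of the size of these medians were not detectable in single genes with 2 arrays a group.

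In complex I, the core subunits carry the flavin and the iron-sulfur clusters. Ndufs8, a core subunit that holds iron-sulfur clusters near the quinone site, read 8.19 and 7.96 untreated, 7.70 and 7.70 with 4OHT, and 8.20 and 7.97 with Shld1. Both 4OHT values were below all 4 others. The difference from untreated was -0.38 (SE 0.15, limma adjusted p 0.96, unadjusted 0.0342). Ndufa7, an accessory subunit, read 8.99 and 8.98 untreated, 8.49 and 8.73 with 4OHT, and 9.32 and 9.08 with Shld1, so that the 3 groups did not overlap and 4OHT was lowest. Its difference from untreated was -0.38 (SE 0.15, limma adjusted p 0.96, unadjusted 0.036). Ndufaf5, an assembly factor that modifies the Ndufs7 protein, read 6.47 and 6.58 untreated, 6.18 and 6.24 with 4OHT, and 6.65 and 6.61 with Shld1, again with no overlap. Its difference from untreated was -0.31 (SE 0.14, limma adjusted p 0.96, unadjusted 0.05).

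The other core subunits of complex I moved less. Ndufv1, which binds NADH and the flavin, read 7.76 and 7.91 untreated and 7.63 and 7.82 with 4OHT, and the groups overlapped. Ndufs1, the largest of the iron-sulfur subunits, read 7.47 and 7.42 untreated and 7.37 and 7.56 with 4OHT, a difference of 0.02 (SE 0.14). Differences were -0.08 for Ndufs3, -0.13 for Ndufs7 and -0.12 for Ndufv2, each within 1 standard error of 0. Ndufs5, an accessory subunit, had the highest positive difference of complex I at 0.22 (SE 0.19), but its 4OHT arrays read 8.09 and 7.57, the widest gap between 4OHT replicates among the 93 genes, and overlapped the untreated values of 7.53 and 7.69.

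In complex II, Sdha, the flavoprotein that oxidises succinate, read 7.96 and 7.94 untreated and 7.93 and 7.99 with 4OHT, a difference of 0.01 (SE 0.14). Sdhb, the iron-sulfur subunit, differed by -0.13 (SE 0.15), and the anchors Sdhc and Sdhd by -0.22 (SE 0.14) and -0.05 (SE 0.19). In complex III, Uqcrfs1, the Rieske iron-sulfur protein, read 8.30 and 8.17 untreated and 7.94 and 8.10 with 4OHT, without overlap, a difference of -0.21 (SE 0.15). The core proteins Uqcrc1 and Uqcrc2 differed by -0.003 (SE 0.165) and -0.07 (SE 0.15). None of these passed the test.

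The complex IV subunits found in most tissues were the least displaced, with a median of -0.032 over 11 genes. Cox4i1, a regulatory subunit, read 10.02 and 9.95 untreated, 9.98 and 9.91 with 4OHT, and 10.10 and 9.89 with Shld1. Cox5a and Cox5b each differed by 0.02 with 4OHT (SE 0.15 and 0.14). Cox8a was the lowest of this class: it read 10.19 and 10.02 untreated and 9.74 and 10.02 with 4OHT, a difference of -0.23 (SE 0.15), and its replicate 2 value was level with the lower untreated value.

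The tissue isoforms included the widest differences of all. Ndufa4l2, the paralog of Ndufa4 that is induced by low oxygen, read 5.96 and 6.15 untreated, 5.30 and 5.41 with 4OHT, and 5.15 and 6.03 with Shld1. The 4OHT arrays lay below the untreated ones, but the gap between the Shld1 arrays was wider than the difference between the groups. Its difference with 4OHT was -0.70 (SE 0.25, limma adjusted p 0.96, unadjusted 0.0178). Cox4i2, the other isoform tied to low oxygen, went the opposite way and was the highest of the 93 differences: it read 4.42 and 4.26 untreated, 4.51 and 4.89 with 4OHT, and 4.45 and 4.63 with Shld1, and the 4OHT difference was 0.36 (SE 0.17, limma adjusted p 0.96). The list of 7 mitochondrial genes known to respond to low oxygen includes both Ndufa4l2 and Cox4i2. In it 6 genes were lower with 4OHT and 1, Cox4i2, was higher, where 52.2% of all genes were lower. Of the 7, 0 passed the adjusted threshold. Bnip3, a mitophagy receptor in that list, read 8.86 and 8.80 untreated, 7.53 and 8.38 with 4OHT, and 8.36 and 8.82 with Shld1, which with 4OHT gives a difference of -0.88 (SE 0.26, limma adjusted p 0.96).

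Cox7a1, described above, differed by -0.33 with 4OHT (SE 0.15, limma adjusted p 0.96), with both 4OHT values under both untreated ones. Beside it, the muscle marker Tnnt1 read 6.78 and 6.68 untreated, 5.86 and 5.99 with 4OHT, and 6.73 and 6.69 with Shld1, and its 4OHT difference was -0.80 (SE 0.14, limma adjusted p 0.96), while 6 of the 8 muscle markers had higher means with 4OHT. The part of these in the Cox7a1 value was not tested.

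In complex V, 10 of 17 subunits had 4OHT values under both untreated ones (58.8%, against 20.4% of all genes and 35.5% of the bright genes) and 2 had values over both (11.8%, against 17.3% of all genes). The catalytic subunits Atp5a1 and Atp5b differed by only -0.06 each (SE 0.14), with Atp5b at 11.04 and 11.06 untreated and 10.97 and 11.01 with 4OHT. The 3 genes for the c ring encode the same mature protein. Atp5g1 read 10.06 and 10.15 untreated and 9.82 and 9.89 with 4OHT (difference -0.25, SE 0.15), and Atp5g2 differed by -0.20 (SE 0.18). Atp5g3, with 10.34 and 10.38 untreated and 10.44 and 10.43 with 4OHT, differed by 0.07 (SE 0.14). No gene of the c ring passed the test, and differences between them were not tested. With Shld1 all 3 had lower means, with differences of -0.16, -0.11 and -0.07.

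**Figure D4:**
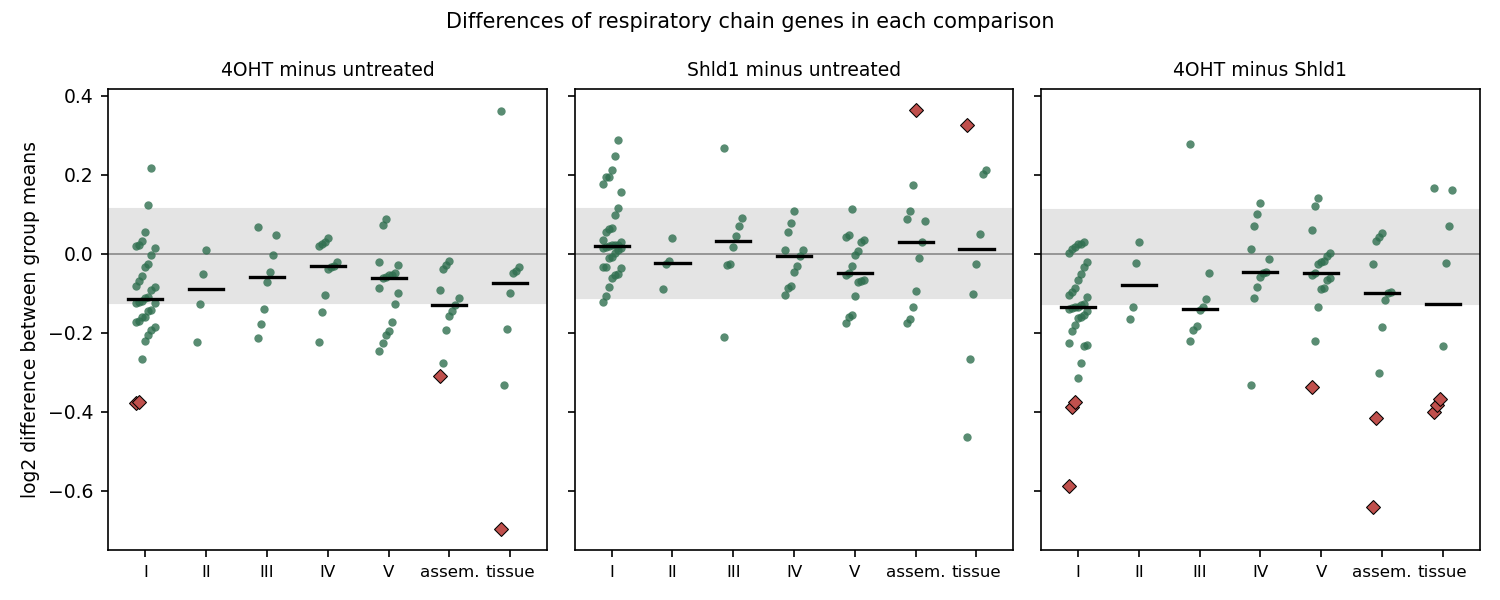
Log2 difference between group means (vertical axis) of each respiratory chain gene by complex and class in the 3 comparisons, with class medians (black lines), the middle range between the quartiles of all genes (grey band), and genes with an unadjusted p under 0.05 (red diamonds). The red diamonds number 4 (all lower) for 4OHT against untreated, 2 (both higher) for Shld1 against untreated and 9 (all lower) for 4OHT against Shld1; 0 genes passed the adjusted threshold.

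The comparison of Shld1 with untreated cells puts the same question for the FKBP ligand. It shares its untreated arrays with the comparison just described. The 93 genes were balanced, with 50 higher and 43 lower, and a median log2 difference of 0.010 against -0.004 over all genes. With limma, 0 of 93 passed the adjusted threshold (smallest adjusted p 0.999), as did 0.0% of all genes. At an unadjusted p under 0.05, 2 genes were higher (2.15%, against 2.41% of all genes) and 0 lower (against 1.94%). Shld1 values lay over both untreated values in 15 genes (16.1%, against 15.2%) and under both in 8 (8.60%, against 17.3%).

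That balance was the sum of 2 arrays that went opposite ways. On Shld1 replicate 1 the median shift from the untreated mean was 0.086, with 74 of 93 genes above. On replicate 2 it was -0.082, with 68 below. The gap between the 2 Shld1 arrays had a median of 0.163 over the 93 genes, and 79 read higher on replicate 1. In the other groups the same gap was -0.013 (untreated) and -0.083 (4OHT). The direction of the median for Shld1 against untreated therefore turns with the array kept: it was -0.082 without Shld1 replicate 1 and 0.086 without Shld1 replicate 2. Replicate 2 is the array with the narrowest signal range, and its olfactory receptor genes, which mark the background, had a median of 2.57 against 2.31 to 2.40 on the other arrays. Bright genes as a class were at -0.118 on it and at -0.001 on replicate 1. Under other scalings more of the 93 genes were higher: 68 after quantile normalization, 63 with centring on the 75th percentile and 67 with cyclic loess. Their medians were 0.053, 0.044 and 0.054, where the medians over all genes were 0.002, 0.03 and -0.002. With centring the median over all genes was thus also above 0.

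The complexes leaned little either way with Shld1, with medians of 0.021 for complex I, -0.023 for complex II, 0.031 for complex III, -0.007 for complex IV and -0.050 for complex V. Sdhaf4, an assembly factor that binds the flavoprotein Sdha before it joins Sdhb, read 6.98 and 6.82 untreated, 6.51 and 6.74 with 4OHT, and 7.38 and 7.15 with Shld1. The 3 groups did not overlap, with Shld1 highest. Its difference with Shld1 was 0.36 (SE 0.16, limma adjusted p 0.999, unadjusted 0.0458). A dimmer probe set of Sdhaf4, with a mean log2 signal of 4.14, differed by 0.04 (SE 0.13). The other gene with an unadjusted p under 0.05, Cox8b, differed by 0.33 (SE 0.14, limma adjusted p 0.999). Its values lay close to the background level, under it when untreated and just above it with Shld1.

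Ndufc1, a small membrane-arm subunit of complex I, read 9.87 and 9.85 with Shld1, against 9.55 and 9.59 untreated and 9.65 and 9.60 with 4OHT, so that the Shld1 arrays stood above all others. Its difference with Shld1 was 0.29 (SE 0.14, limma adjusted p 0.999, unadjusted 0.0618). A dimmer probe set of Ndufc1, with a mean log2 signal of 6.60, differed by -0.01 (SE 0.17). Uqcrb, a complex III subunit near the quinone site, read 8.79 and 8.67 with Shld1 against 8.59 and 8.33 untreated, a difference of 0.27 (SE 0.15). Ndufa12, an accessory subunit of complex I, read 7.16 and 7.15 against 6.85 and 6.97, a difference of 0.25 (SE 0.15). On the other side, Uqcrh, the hinge protein of complex III, read 10.00 and 9.78 with Shld1 against 10.11 and 10.09 untreated, a difference of -0.21 (SE 0.15), and Cox8c differed by -0.27 (SE 0.15). Ndufaf4 and Sdhaf3, assembly factors of complexes I and II, differed by -0.18 and -0.16. None passed the adjusted threshold.

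The direct comparison of 4OHT with Shld1 sets the means of the treated groups side by side; the untreated arrays enter only the estimate of the spread. With limma, 0 of 93 genes passed the adjusted threshold (smallest adjusted p 0.844), as did 0.0% of all genes. At an unadjusted p under 0.05, 9 genes were lower with 4OHT (9.68%, against 3.1% of all genes) and 0 higher (against 2.5%). Of the 93, 71 were lower and 22 higher, with a median of -0.097 against -0.004 over all genes. The 4OHT values lay under both Shld1 values in 31 genes (33.3%, against 15.6% of all genes) and over both in 4 (4.30%, against 14.9%). Here the bright genes did not share the tilt: their median was 0.003, and 15.2% of them had 4OHT values under both Shld1 values.

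The size of this tilt depended on the arrays kept. Without Shld1 replicate 1, which leaves only the narrow-range array of that group, the median difference was -0.0001, with 47 genes lower and 46 higher. Without Shld1 replicate 2 it was -0.170, with 81 lower, and without 4OHT replicate 1 it was -0.049, with 61 lower. Under rescaling it was -0.111 (quantile normalization, 74 lower), -0.086 (centring on the 75th percentile, 70 lower) and -0.095 (cyclic loess, 73 lower). The medians over all genes were then -0.01, 0.007 and -0.003. With both narrow-range arrays left out, which leaves 1 array in each treated group, the median of the 93 genes was -0.136 and 75 were lower. By complex, the medians over all 6 arrays were -0.136 (I), -0.107 (II), -0.139 (III), -0.047 (IV) and -0.050 (V). In complex I, 33 of 41 genes were lower and 18 (43.9%, against 15.6% of all genes) had 4OHT values under both Shld1 values, while 0 had values over both (against 14.9% of all genes). Of all genes, 50.9% were lower.

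The 9 genes were Sdhaf4, Ndufa7, Ndufaf5, Cox7b2, Ndufs8, Cox7a1, Ndufb2, Cox8b and Atp5md. Sdhaf4 had the widest difference, -0.64 (SE 0.16, limma adjusted p 0.844, unadjusted 0.0025), and Ndufa7 followed with -0.59 (SE 0.15, limma adjusted p 0.844, unadjusted 0.00364). Ndufaf5 differed by -0.42, Cox7b2 by -0.40, Ndufs8 by -0.39, and Cox7a1 and Ndufb2 by -0.38. Ndufb2, a membrane-arm subunit of complex I, read 7.24 and 7.32 with 4OHT, 7.72 and 7.60 with Shld1, and 7.51 and 7.50 untreated, with the untreated arrays between the others. Atp5md, a small ATP synthase subunit linked to its dimers, read 9.39 and 9.60 with 4OHT against 9.84 and 9.83 with Shld1, which differ by -0.34 (SE 0.15). Cox7b2 was compared under the background level, and Cox8b close to it, with 4OHT values under it and Shld1 values of 3.96 and 3.88 just above. At such levels a difference does not give a change of the transcript. In the positive direction Uqcrh differed by 0.28 (SE 0.15), Cox8c by 0.17, Cox4i2 by 0.16 and Atp5g3 by 0.14.

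**Figure D5:**
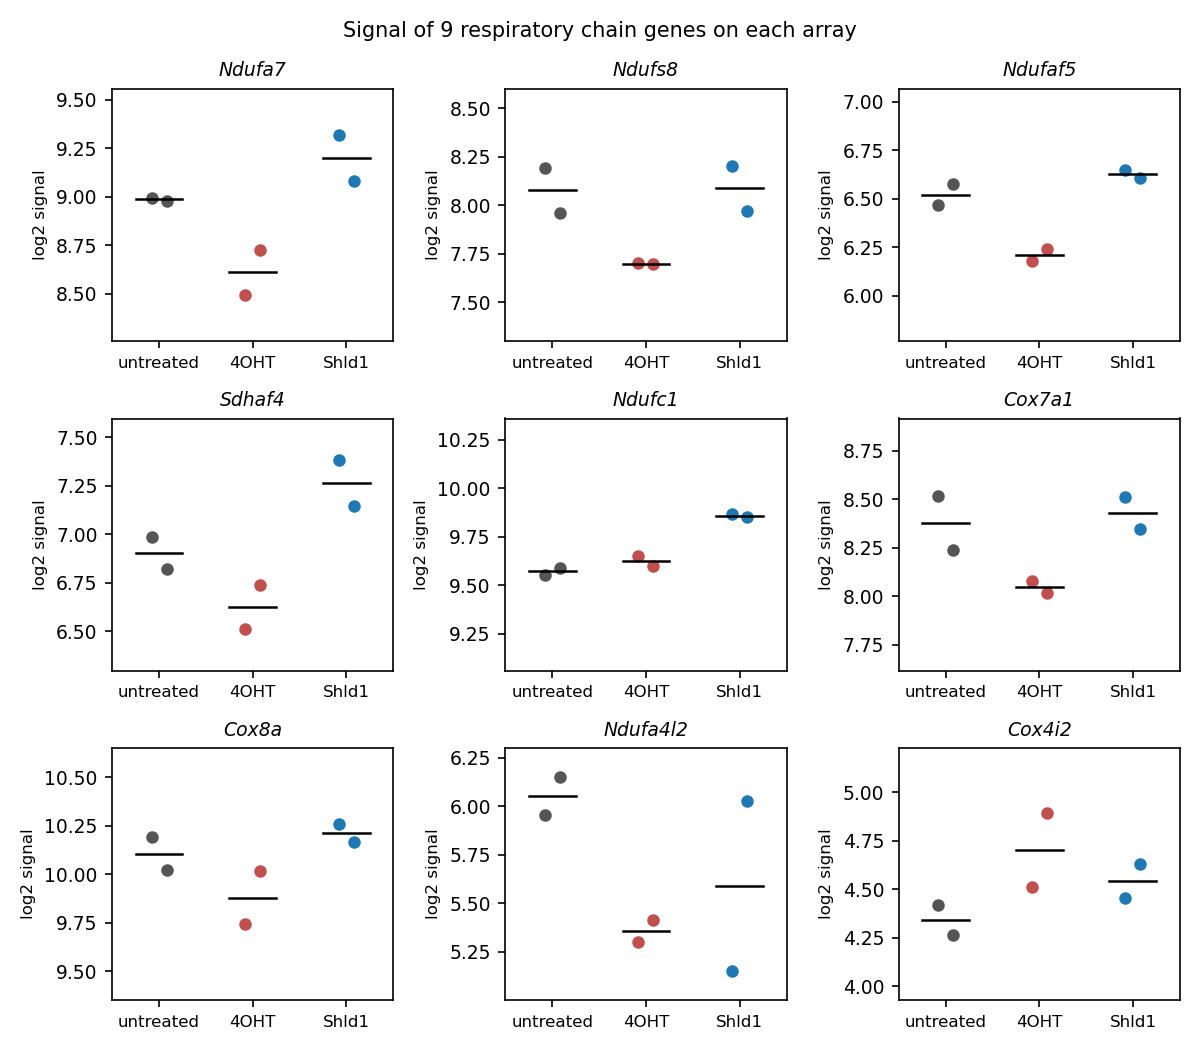
Log2 signal (vertical axes, each spanning the same range) of 9 respiratory chain genes on the 2 untreated, 2 4OHT and 2 Shld1 arrays (points), with group means (black lines). Ndufa7, Ndufaf5 and Sdhaf4 have no overlap between groups, with 4OHT lowest; the 2 Shld1 values of Ndufa4l2, 5.15 and 6.03, span nearly all the values of that gene.

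Some genes had more than 1 probe set. In each comparison, 14 of the 18 such genes had all their probe sets on the same side of 0. In both comparisons that include Shld1 the sizes differed most for Sdhaf4. Its dimmer probe set, with a mean log2 signal of 4.14, differed by -0.13 between 4OHT and Shld1, where the brighter one, with a mean of 6.93, differed by -0.64. For 4OHT against untreated the sizes differed most for Atp5md, whose 3 probe sets differed by -0.225, -0.114 and 0.024. Between 4OHT and Shld1 they differed by -0.34, -0.34 and -0.15. A further 6 probe sets carried several symbols, for Cox7c, Ndufb4 and a pseudogene of Ndufs5, and gene and pseudogene could not be told apart on them.

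Over the 6 arrays the genes tended to go up and down together. As a description, the correlation of a gene with the mean of all the others had a median of 0.673 over 6 arrays, exceeded 0.5 in 63 genes and was below 0 in 11. All points share the same 6 arrays and their scaling. How many of all genes exceed 0.5 with the same mean was not counted, so this is not shown to be particular to the 93 genes. The genes outside the list whose values were most like the mean of the 93 were Pcbp4 (Pearson's r 0.994), Tmem222 (0.994), Snora41 (0.993), Mfsd13a (0.993) and Ubl7 (0.993), over the same 6 arrays. They were picked as the highest among all other genes, so that high correlations over 6 arrays follow from the choice. Mfsd13a, for example, read 7.88 and 7.89 untreated, 7.71 and 7.77 with 4OHT, and 7.99 and 7.80 with Shld1.

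Genes around the chain were taken from lists of known members. The subunits encoded by mitochondrial DNA were represented by 2 of 13 genes. COX2 read 12.29 and 12.32 untreated, 12.62 and 12.38 with 4OHT, and 12.32 and 12.60 with Shld1. ND3 read 11.03 and 11.02 untreated, 11.21 and 11.04 with 4OHT, and 11.13 and 11.30 with Shld1. Both were highest on the 2 narrow-range arrays, 4OHT replicate 1 and Shld1 replicate 2. Their differences with 4OHT were 0.19 (SE 0.16) and 0.10 (SE 0.14), with Shld1 0.16 (SE 0.16) and 0.19 (SE 0.14), and neither gene passed the test.

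Cytochrome c (Cycs), the carrier between complexes III and IV, read 8.62 and 8.80 untreated, 8.77 and 8.66 with 4OHT, and 8.71 and 8.68 with Shld1, with overlap between all groups. Of 27 measured assembly factors that lie outside the 93 genes, 20 were lower with 4OHT, with a median of -0.123, and 15 were lower with Shld1, with a median of -0.012. The lowest with 4OHT included Foxred1 (-0.53, SE 0.24) and Uqcc2 (-0.40, SE 0.18), which help to assemble complexes I and III. Surf1, a complex IV assembly factor, read 6.38 and 6.06 with Shld1 against 5.66 and 5.82 with 4OHT. Of 15 measured regulators of mitochondrial genes, 11 were lower with 4OHT (median -0.099) and 12 with Shld1 (median -0.073). Beside the counts of assembly factors and regulators, 52.2% of all genes were lower with 4OHT and 51.1% with Shld1. Among the 12841 genes above background, 7536 and 7452 were lower. Nrf1, the factor that binds the NRF1 core, differed by -0.07 (SE 0.15) with 4OHT and -0.13 (SE 0.15) with Shld1. Gabpa and Yy1 differed by -0.11 and -0.13 with 4OHT. Ppargc1a, a coactivator of oxidative genes in muscle and brown fat, was under background on all 6 arrays. The 23 genes with an NRF1 core had a median difference of -0.055 with 4OHT, and the 54 with a window and no core -0.115.

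Genes of the citric acid cycle and glycolysis leaned the same way as most genes above background. Of those 12841 genes, 7536 were lower with 4OHT and 7452 with Shld1 (medians -0.035 and -0.030). Among the bright genes, to which only some of the listed genes belong, 975 of 1384 were lower with 4OHT and 1013 of 1384 with Shld1 (medians -0.056 and -0.059). The medians of both lists lay further below 0 than these. All 15 measured citric acid cycle genes had lower means with 4OHT, with a median of -0.113, and 12 of 15 with Shld1, with a median of -0.100. Of 14 measured glycolysis genes, 13 were lower with 4OHT (median -0.215) and 13 with Shld1 (median -0.179); the comparisons share the untreated arrays. The exception was Hk1, a hexokinase, with differences of 0.17 (SE 0.19) and 0.09 (SE 0.19). Between 4OHT and Shld1 directly, 7 glycolysis genes were higher and 7 lower, with a median of -0.003. Pfkl and Pfkp, subunits of phosphofructokinase, differed by -0.40 (SE 0.18) and -0.38 (SE 0.19) with 4OHT. With limma, 0 genes of these lists passed the adjusted threshold in any of the 3 comparisons.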

How the data were processed

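Biotin-labelled total RNA from 6 samples of RW4 cells was hybridised to single-colour arrays. The deposited table holds the authors' log2 values, 1 per probe set and array, as judged from their range; background correction, summarization and normalization are not given in the sources used here, and limma 3.14 appears in the submitters' processing notes with no step given. Genes were named from the platform annotation (1 symbol, brightest probe set). All 93 gene names were matched to RefSeq (GRCm38.p6), which also gave the promoter windows. Arrays carry no read depth; their number limits the precision.

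The values were fitted with limma 3.58.1 in R 4.3.3 as a mean per group over all 6 arrays, with eBayes, two-sided tests and Benjamini-Hochberg adjustment over 19938 genes (threshold 0.05). The fit has 3 residual and 6.77 prior degrees of freedom. An exact permutation test of 2 against 2 arrays cannot go below 0.333, so none was run. The fit was tested on simulated data. Genes and lists were chosen with earlier results of these data known, so lists are described by counts and medians, with no test. Named with values were listed conserved subunits of each complex and paired isoforms. Also named were the 5 genes with the highest and the 5 with the lowest moderated statistic in each comparison. To these were added the gene with the widest gap between duplicates in each group and the 5 outside genes most like the mean. Other scalings, variance models, probe set rules, a replicate block and leaving out each array were tried as alternatives.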

Additional observations from a re-analysis of the deposited data

How the results depend on the processing

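Under each of the alternatives run, 0 of the 93 genes passed the adjusted threshold in any comparison. The median difference for 4OHT against untreated kept its sign, from -0.136 without 4OHT replicate 2 to -0.036 without 4OHT replicate 1. For Shld1 against untreated it ran from -0.082 (without Shld1 replicate 1) to 0.086 (without Shld1 replicate 2), and for 4OHT against Shld1 from -0.170 (without Shld1 replicate 2) to -0.0001 (without Shld1 replicate 1); each follows from which array is left out. Where 1 array remains in a group, it is assumed to vary like the others. Cyclic loess and the joint removal of the narrow-range arrays were chosen after seeing the data. With an intensity trend in the variance, 9, 4 and 15 genes had an unadjusted p under 0.05 in the 3 comparisons, against 4, 2 and 9. The 9 were all lower, the 4 were 1 lower and 3 higher, and the 15 were 14 lower and 1 higher. The share of all genes under this model was not counted, so the rise is not read as a trait of these genes. The smallest adjusted p among the 93 genes was 0.367. Of 952 values of named genes per comparison, 8, 22 and 27 moved by more than 1 standard error, and 45, 73 and 49 changed sign. These counts do not measure stability, because many of the 952 values could not move. The variance models, the replicate block and the removal of an array from the group not compared leave the differences as they were.

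The differences between replicates 1 and 2 were correlated between groups at 0.05, -0.079 and -0.194 over all genes. Over the 93 genes the correlations were -0.107, -0.13 and 0.166. They include the signal range of single arrays, so they cannot show whether the replicate numbers mark a shared day or culture. No label states what the numbers mark. With the replicate block, 0 genes passed the adjusted threshold, and 2, 1 and 8 of the 93 had an unadjusted p under 0.05, all of them lower. The share of all genes under this model was not counted, so these counts are not read as a result about the 93 genes. The medians, -0.093, 0.010 and -0.097, could not change, because every group holds both replicate numbers.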

Other observations

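The probe sets of Ndufa1 and Ndufa3, different complex I subunits, gave nearly the same values on every array; the pair was chosen after its values were seen. Ndufa1 read 8.82 and 8.75 untreated, 8.56 and 8.73 with 4OHT, and 8.93 and 8.66 with Shld1. Ndufa3 read 8.82 and 8.76 untreated, 8.56 and 8.73 with 4OHT, and 8.93 and 8.72 with Shld1.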
